A study of Mus musculus with 12 samples.

Results

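The CXC chemokines are small secreted proteins that draw leukocytes into inflamed tissue, and 8 of their genes were followed here by transcript level. The members were taken by symbol, through the mouse Ensembl identifiers of the deposited table, and number 8 of the 55401 genes it lists: Cxcl1, Cxcl2, Cxcl3, Cxcl5, Cxcl9, Cxcl10, Cxcl11 and Cxcl16. The rule itself used no measured value, but the members were chosen with earlier results of these data known. The transcripts were measured by RNA sequencing in bone-marrow-derived macrophages (BMDMs), cells grown from marrow precursors with the growth factor M-CSF, here at 20 nM over 7 days. The study held 12 libraries in 4 groups of 3. All of them came from C57BL/6J mice that lack the homeobox transcription factor gene Irx3 (genotype Irx3-/-), and all cultures received lipopolysaccharide (LPS), a bacterial wall component sensed by Toll-like receptor 4, at 100 ng/ml for 4 h before RNA was taken. The groups differed in the construct delivered by adeno-associated virus: green fluorescent protein (GFP), wild-type IRX3 (IRX3_WT), IRX3_S361A or IRX3_S389A, the last pair named for a serine replaced by alanine. No library without LPS, without virus or with the endogenous Irx3 gene was part of the series, so every difference below lies between constructs in stimulated, Irx3-deficient cells. The sources used here do not give the promoter of the constructs, the number of mice, or whether the 3 libraries of a group came from separate mice or cultures. P-values therefore measure the spread between these libraries, which may be technical.

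As background, CXC chemokines carry a pair of cysteines separated by a single residue and signal through receptors coupled to G proteins. CXCL1, CXCL2, CXCL3 and CXCL5 hold the glutamate-leucine-arginine motif ahead of those cysteines, bind CXCR2 and recruit neutrophils, and macrophages induce their genes within hours of LPS, largely through NF-kappaB. CXCL9, CXCL10 and CXCL11 lack the motif, bind CXCR3 on activated T cells and natural killer cells, and are induced by interferons through STAT and IRF factors. LPS reaches that second set mainly through the interferon beta that macrophages release. CXCL16 differs from both sets: it is made as a membrane protein, binds CXCR6, takes up oxidized lipoprotein, and is shed by the proteases ADAM10 and ADAM17. In the C57BL/6 background the Cxcl11 reading frame is interrupted, so its transcript in these cells is not expected to give the intact chemokine.

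The genes lie in 3 places (GENCODE M21 annotation, GRCm38, the assembly also called mm10). The neutrophil-attracting set spans 146.579 kb on chromosome 5, all on the plus strand: Cxcl5 (ENSMUSG00000029371.7) at chr5:90759360-90761624, Cxcl3 (ENSMUSG00000029379.10) at chr5:90786103-90789600, Cxcl1 (ENSMUSG00000029380.11) at chr5:90891241-90893115 and Cxcl2 (ENSMUSG00000058427.10) at chr5:90903871-90905938. The CXCR3-binding set lies 1.42 Mb further along within 44.139 kb, all on the minus strand: Cxcl9 (ENSMUSG00000029417.9) at chr5:92321347-92328079, Cxcl10 (ENSMUSG00000034855.13) at chr5:92346638-92348889 and Cxcl11 (ENSMUSG00000060183.6) at chr5:92359544-92365485, which the annotation classes as a polymorphic pseudogene. Cxcl16 (ENSMUSG00000018920.11) stands apart on chromosome 11, at chr11:70453983-70459984 on the minus strand.

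Promoter windows are shown because the sets of members are known to answer to different factors, NF-kappaB and the interferon-activated STAT and IRF factors, and the letters just before the start show where sites of these kinds could lie. RefSeq windows (GRCm38.p6), each running from 250 bases before to 50 bases after the annotated transcription start, were at hand for 5 members. They are printed 5′ to 3′ on the strand of the gene. Capitals mark a match to GGGAATTTC or GGAATTTCC (NF-kappaB-type patterns that overlap in 8 bases when they follow each other), to GAAANNGAA (the core of an interferon-stimulated response element) or to TGANTCA (an AP-1-type pattern). Both strands were searched.
Cxcl1, chr5:90890995-90891294, plus strand: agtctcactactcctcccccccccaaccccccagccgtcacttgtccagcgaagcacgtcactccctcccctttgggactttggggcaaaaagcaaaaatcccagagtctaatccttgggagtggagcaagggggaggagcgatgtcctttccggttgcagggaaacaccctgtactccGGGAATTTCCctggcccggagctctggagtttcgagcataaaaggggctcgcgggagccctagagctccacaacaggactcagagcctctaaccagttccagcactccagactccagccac
Cxcl2, chr5:90903649-90903948, plus strand: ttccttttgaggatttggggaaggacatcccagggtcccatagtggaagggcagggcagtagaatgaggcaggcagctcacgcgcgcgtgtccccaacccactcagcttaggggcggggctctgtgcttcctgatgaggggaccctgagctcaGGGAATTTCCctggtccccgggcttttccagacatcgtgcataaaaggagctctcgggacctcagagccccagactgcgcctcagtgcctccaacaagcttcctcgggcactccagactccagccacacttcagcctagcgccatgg
Cxcl3, chr5:90785851-90786150, plus strand: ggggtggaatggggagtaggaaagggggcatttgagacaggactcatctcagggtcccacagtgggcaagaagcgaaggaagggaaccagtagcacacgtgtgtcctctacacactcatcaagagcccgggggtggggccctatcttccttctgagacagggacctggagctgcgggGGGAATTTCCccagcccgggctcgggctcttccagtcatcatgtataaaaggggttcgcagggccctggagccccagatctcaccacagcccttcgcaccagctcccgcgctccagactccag
Cxcl9, chr5:92328030-92328329, minus strand: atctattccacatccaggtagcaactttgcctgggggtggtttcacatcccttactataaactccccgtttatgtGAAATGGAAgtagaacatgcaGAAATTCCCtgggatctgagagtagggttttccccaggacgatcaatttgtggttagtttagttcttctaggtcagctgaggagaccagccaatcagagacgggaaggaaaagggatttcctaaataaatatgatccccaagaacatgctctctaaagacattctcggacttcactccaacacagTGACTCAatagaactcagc
Cxcl10, chr5:92348840-92349139, minus strand: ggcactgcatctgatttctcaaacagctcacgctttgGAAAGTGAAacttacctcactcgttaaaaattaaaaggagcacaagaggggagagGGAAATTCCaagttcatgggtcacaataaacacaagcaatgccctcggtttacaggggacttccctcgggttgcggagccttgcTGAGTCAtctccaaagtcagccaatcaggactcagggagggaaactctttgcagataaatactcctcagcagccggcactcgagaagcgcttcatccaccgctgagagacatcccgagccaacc

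Cxcl1, Cxcl2 and Cxcl3 each held both NF-kappaB-type patterns as 1 run on the strand of the gene, beginning 71, 97 and 73 bases before the start. Cxcl9 held GGGAATTTC and Cxcl10 held GGAATTTCC, each on the opposite strand with its first base 154 and 158 bases before the start. Of all 32851 mouse windows of the same length, 0.259% held GGGAATTTC and 0.317% held GGAATTTCC. GAAANNGAA was matched in Cxcl9 (GAAATGGAA) and Cxcl10 (GAAAGTGAA), beginning 175 and 213 bases before the start, against 8.56% of all windows. TGANTCA was matched in Cxcl10 (TGAGTCA) and, after the start, in Cxcl9 (TGACTCA), against 7.81% of all windows. Neither of these last patterns was in the windows of Cxcl1, Cxcl2 or Cxcl3. The patterns were settled after these windows had been searched with other forms, other NF-kappaB-type forms are not marked, and the shares are a description that supports no difference between the sets. These are letter matches, not measured binding.

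The deposited values are normalized counts, in which 1 unit is close to 1 read, and the sums per library ran from 17325311 to 19796325. Those sums were lowest in the 3 GFP libraries (17325311 to 17469765), and scaling all libraries to equal totals moved the median of all tested genes from -0.01 to -0.18 on the log2 scale for IRX3_WT against GFP. All 8 macrophage marker genes were present. Their summed level was 359792 to 370143 in GFP, 389296 to 393725 in IRX3_WT, 416752 to 429929 in IRX3_S361A and 393368 to 406993 in IRX3_S389A, so GFP was lowest and IRX3_S361A highest without overlap. Of the 8, 3 were called higher and 1 lower with IRX3_WT than with GFP, 5 and 0 with IRX3_S361A, and 6 and 1 with IRX3_S389A, and their part in the results below was not tested. Over all genes 21.0% were called higher and 18.6% lower with IRX3_WT, 14.9% and 10.9% with IRX3_S361A, and 18.8% and 16.2% with IRX3_S389A. The 8 neutrophil markers summed to 25.8 to 63.3 and Ly6g, Mpo and Elane, which define neutrophils and their precursors, were at 0 in all 12 libraries. Markers of stromal and endothelial cells summed to 111 to 160 in GFP, 275 to 289 in IRX3_WT, 172 to 243 in IRX3_S361A and 239 to 268 in IRX3_S389A. In bulk RNA, fewer cells making a transcript and less transcript per cell cannot be told apart.

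Irx3 itself fitted the labels. It was at 0 in all 3 GFP libraries, where 0 reads allow at most 2.67 to 2.78 normalized counts. It was 165, 170 and 196 in the IRX3_WT libraries, 324 to 364 in IRX3_S361A and 165 to 203 in IRX3_S389A. The IRX3_S361A libraries thus held more Irx3 transcript than the IRX3_WT libraries (log2 difference 0.97, adjusted p = 0.000197, limma), so in each comparison with IRX3_S361A the changed serine cannot be told apart from the amount of transcript. IRX3_S389A and IRX3_WT differed by 0.08 (adjusted p = 0.839) and their ranges overlapped.

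Levels per kilobase of annotated exon put the members in 3 tiers. For Cxcl1, Cxcl2, Cxcl3 and Cxcl10 the annotated exons merge into 1 block over the whole gene. Introns of their spliced forms thus count as exon length (3498 bases in all for Cxcl3), which understates their levels per kb. The order between members is approximate for that reason. In the IRX3_WT libraries Cxcl2 stood at 34540 ± 328 normalized counts per kb (SD, n = 3), Cxcl1 at 26327 ± 964 and Cxcl10 at 22704 ± 1958. Cxcl3 followed at 5703 ± 370 and Cxcl16 at 2935 ± 87.4. The lowest tier held Cxcl5 at 131 ± 16.4, Cxcl11 at 114 ± 19.2 and Cxcl9 at 72.5 ± 8.20, of which the first pair lay within each other's spread. The order was not the same under each construct. Cxcl10 stood above Cxcl1 in GFP (15392 ± 940 against 11337 ± 603 per kb), and in IRX3_S389A it reached 27471 ± 733, within the spread of Cxcl2 at 26977 ± 3206. Cxcl5 was the lowest member in GFP at 35.9 ± 1.66. The 8 members together made up 0.627 to 0.680% of all normalized counts in GFP, 0.993 to 1.04% in IRX3_WT, 0.796 to 0.838% in IRX3_S361A and 0.882 to 0.962% in IRX3_S389A.

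**Figure D1:**
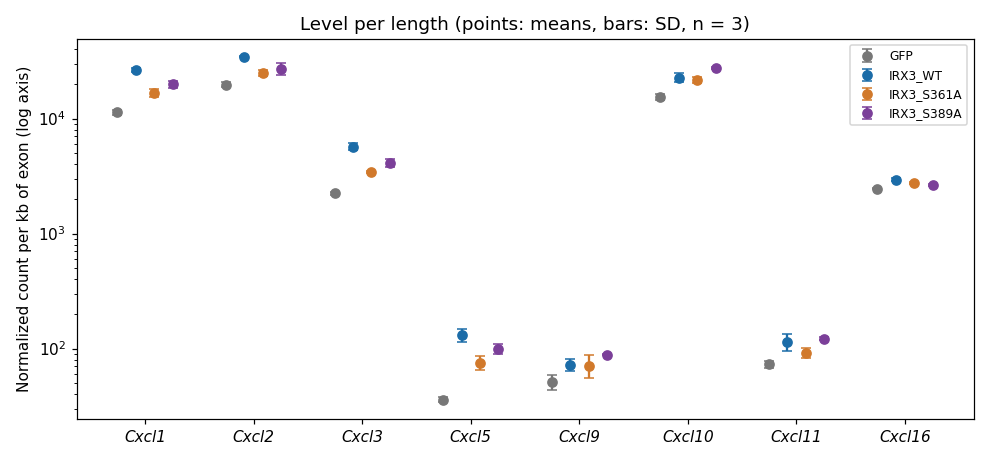
Mean normalized counts per kb of exon on a log axis for the 8 members in the 4 construct groups, with bars of 1 SD over 3 libraries. Cxcl1, Cxcl2 and Cxcl10 lie highest, Cxcl3 and Cxcl16 below them, and Cxcl5, Cxcl9 and Cxcl11 lowest, between 35.9 and 131 per kb.

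Cxcl1, which encodes the neutrophil attractant also called KC, read 20141, 22400 and 21228 normalized counts in the 3 GFP libraries and 51140, 49425 and 47525 in IRX3_WT. It read 28662, 34089 and 31247 in IRX3_S361A and 34948, 36346 and 40349 in IRX3_S389A. The 4 groups did not overlap, in the order IRX3_WT, IRX3_S389A, IRX3_S361A, GFP.

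Cxcl2, encoding MIP-2, read 40313, 43060 and 39278 in GFP and 71329, 70807 and 72151 in IRX3_WT. It read 48406, 54324 and 52124 in IRX3_S361A and 52496, 51450 and 63421 in IRX3_S389A, where the third library stood above the other pair. The IRX3_WT libraries were above all others, the GFP libraries below all others, and the substituted constructs overlapped. Of the 50-base words in Cxcl2 transcripts 5.84% also occur in Cxcl3, so a small part of their reads could have been assigned either way.

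Cxcl3 read 7513, 7953 and 8028 in GFP, 20928, 20440 and 18483 in IRX3_WT, 11625, 12087 and 12180 in IRX3_S361A, and 13461, 13941 and 15657 in IRX3_S389A. Its 4 groups did not overlap and stood in the order seen for Cxcl1.

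Cxcl5, encoding the chemokine LIX, was far less abundant, with 70.5, 65.4 and 65.0 in GFP and 254, 211 and 270 in IRX3_WT. It read 118, 155 and 148 in IRX3_S361A and 167, 182 and 205 in IRX3_S389A. Again the 4 groups stood apart in the same order, although the highest IRX3_S389A library (205) came close to the lowest IRX3_WT library (211).

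Cxcl9, the interferon-gamma-induced CXCR3 ligand MIG, read 147, 180 and 135 in GFP, 218, 244 and 195 in IRX3_WT, 262, 217 and 166 in IRX3_S361A, and 268, 269 and 263 in IRX3_S389A. The IRX3_S389A libraries were above all others, whereas the IRX3_S361A libraries were the most spread and overlapped both IRX3_WT and GFP.

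Cxcl10, encoding IP-10, read 33630, 37099 and 33262 in GFP and 53466, 53879 and 46043 in IRX3_WT. It read 52173, 48983 and 46143 in IRX3_S361A and 62221, 63309 and 60065 in IRX3_S389A. The IRX3_S389A libraries were highest, the IRX3_WT and IRX3_S361A libraries shared 1 range, and GFP was lowest. The gene Art3 on the other strand covers 5.91% of the Cxcl10 exon bases, and its own level was 2.02 to 11.8.

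Cxcl11, encoding I-TAC in other mouse backgrounds, read 292, 283 and 255 in GFP, 413, 512 and 370 in IRX3_WT, 371, 364 and 309 in IRX3_S361A, and 476, 453 and 456 in IRX3_S389A. GFP was below all others, and IRX3_WT overlapped both substituted constructs. The pseudogene Gm2673 covers 41.7% of its exon bases on the opposite strand and is listed at 0 in all libraries. The sources used here do not state whether counting used strand, so the Cxcl11 values are uncertain to that extent.

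Cxcl16 varied least. It read 7439, 7435 and 7364 in GFP, 8637, 9155 and 8805 in IRX3_WT, 8479, 8104 and 8317 in IRX3_S361A, and 8055, 8186 and 7871 in IRX3_S389A. GFP was lowest, IRX3_WT highest, and the substituted constructs overlapped between them. Zmynd15, on the other strand, covers 18.3% of the Cxcl16 exon bases and read 858 to 1117, so part of the Cxcl16 values could be its reads.

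**Figure D2:**
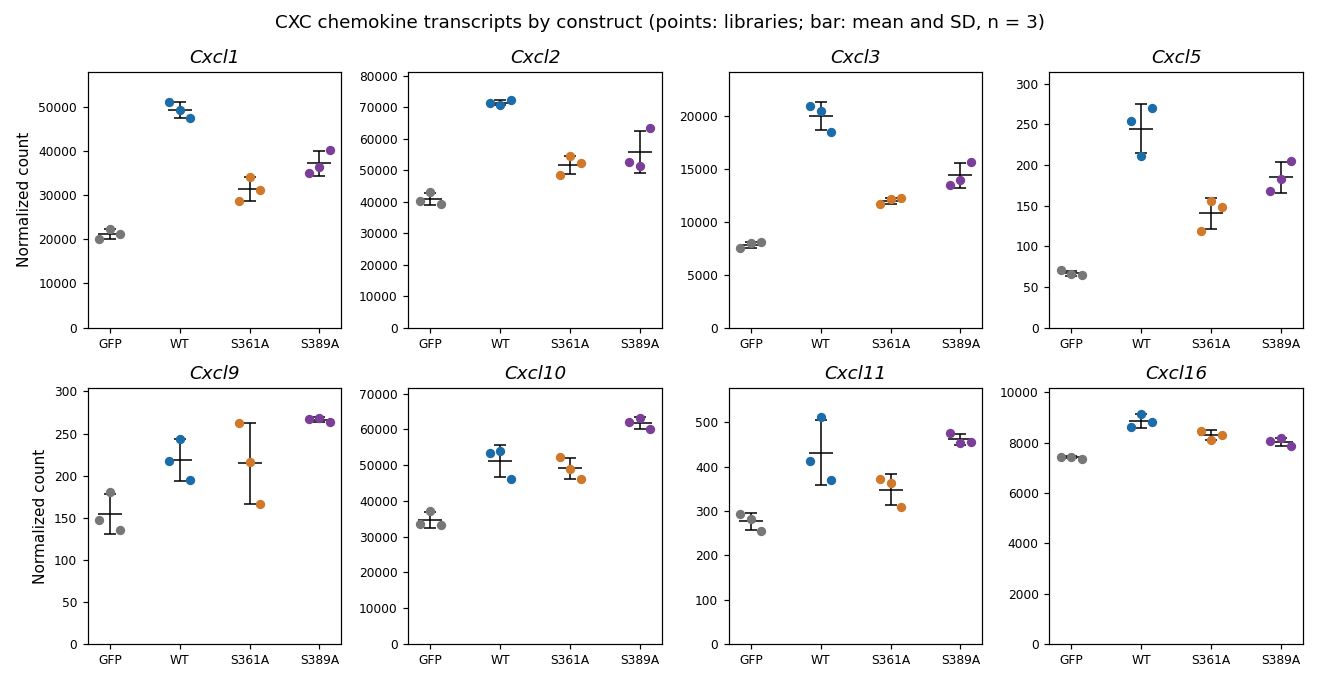
Normalized counts of each member (linear axes from 0) by construct, with points for libraries and bars for the mean and SD over 3 libraries. Cxcl1, Cxcl2, Cxcl3 and Cxcl5 are highest with IRX3_WT, whereas Cxcl9, Cxcl10 and Cxcl11 have their highest mean with IRX3_S389A.

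Over the 4 groups together, 8 of 8 members were called different, where 44.2% of all genes tested were (limma F test on log2(value + 1), adjusted p under 0.05). Because of how the members were chosen, this count and those below are descriptions beside the shares of all genes. Adjusted p-values of the members ran from 1.03e-13 (Cxcl5) to 0.000259 (Cxcl2).

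Restoring wild-type IRX3 to cells without Irx3 was the first comparison. All 8 members were called higher with IRX3_WT than with GFP. Of the 13369 genes tested, 21.0% were called higher and 18.6% lower in this comparison (limma on log2(value + 1), adjusted p under 0.05). With libraries scaled to equal totals, all 8 members were still called higher, while the split over all genes went from 2805 higher and 2483 lower to 1396 and 5523. The median log2 difference of the members was 0.72, against -0.01 over all genes tested. Fold values below are on that log2(value + 1) scale.

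The estimates were largest for the neutrophil-attracting genes. Cxcl5 was 3.60-fold higher (log2 difference 1.85 ± 0.13 SE, adjusted p = 2.09e-14), Cxcl3 was 2.54-fold higher (1.35 ± 0.05, adjusted p = 2.73e-13) and Cxcl1 was 2.32-fold higher (1.22 ± 0.08, adjusted p = 1.03e-06). Cxcl2, which had the highest level of the set in GFP, was 1.75-fold higher (0.81 ± 0.08, adjusted p = 4.46e-05). The estimates of the CXCR3 ligand genes were smaller, although the 95% interval of Cxcl11 (0.43 to 0.83) overlapped that of Cxcl2 (0.62 to 0.99). Cxcl11 was 1.55-fold higher (0.63 ± 0.10, adjusted p = 1.65e-06), Cxcl10 was 1.47-fold higher (0.56 ± 0.07, adjusted p = 0.000237) and Cxcl9 was 1.42-fold higher (0.51 ± 0.13, adjusted p = 0.00216). Cxcl16 was 1.20-fold higher (0.26 ± 0.03, adjusted p = 9.77e-08), a small difference that exceeded its narrow spread. The stromal and endothelial marker sum was also higher with IRX3_WT (275 to 289 against 111 to 160), most of it Pdgfrb at 225 ± 5.65 against 84.6 ± 13.2. Of the 5 markers of that list that were tested, 1 was called higher and none lower, where 21.0% and 18.6% of all genes were. The median log2 difference of these 5 was 0.08, and the part of the list in the chemokine differences was not tested. The neutrophil marker sum was 43.2 to 63.3 with IRX3_WT and 25.8 to 40.8 with GFP, with Ly6g, Mpo and Elane at 0 in both. The dendritic cell marker sum was 222 to 234 with IRX3_WT and 167 to 212 with GFP. Of the 2 neutrophil markers tested 1 was called higher, as was 1 of the 3 dendritic cell markers tested, and none was lower. The part of these markers was not tested.

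**Figure D3:**
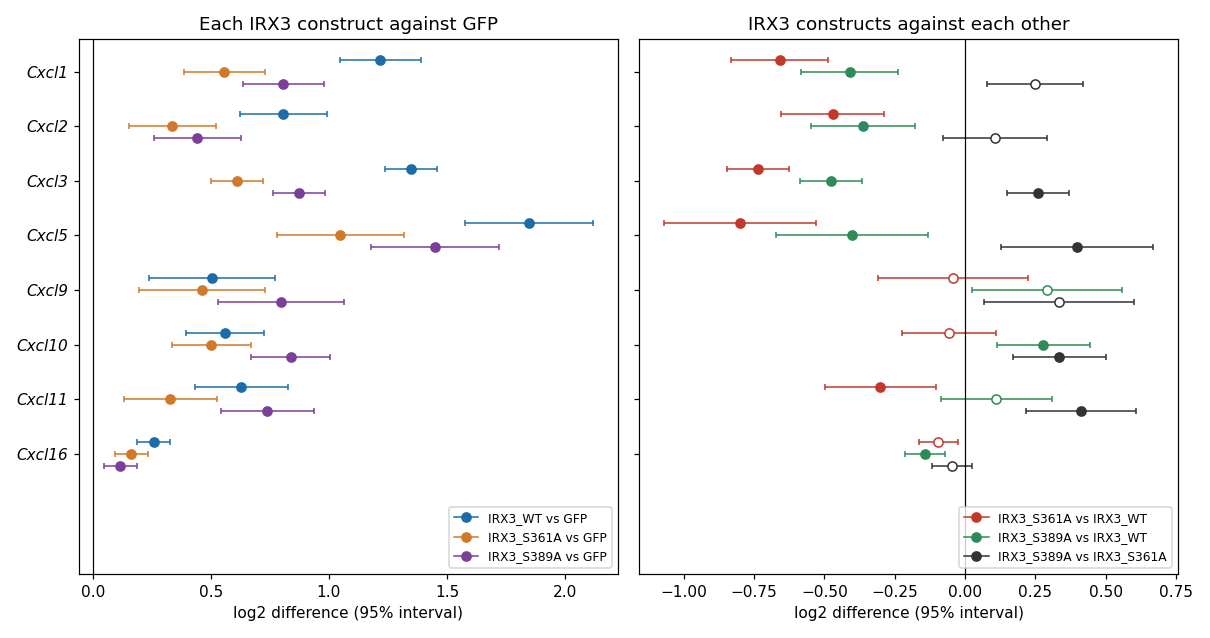
Log2 differences with 95% intervals from limma for each member, IRX3 constructs against GFP on the left and against each other on the right. Filled points passed an adjusted p of 0.05 and open points did not. All points on the left are filled and above 0, whereas on the right Cxcl1, Cxcl2, Cxcl3 and Cxcl5 lie below 0 against IRX3_WT and Cxcl10 lies above 0 for IRX3_S389A.

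The next comparison asked how the S361A substitution changed the levels reached with wild-type IRX3. The 4 neutrophil-attracting genes and Cxcl11 were lower with IRX3_S361A, and no member was higher. Over all genes 6.43% were called higher and 9.07% lower, and with equal totals the split of 859 higher and 1212 lower became 1806 and 752 while the members' count became 4 lower. Cxcl5 fell by 0.80 (SE 0.13, adjusted p = 2.61e-05), Cxcl3 by 0.74 (SE 0.05, adjusted p = 1.26e-08), Cxcl1 by 0.66 (SE 0.08, adjusted p = 0.000351) and Cxcl2 by 0.47 (SE 0.08, adjusted p = 0.00443), all on the log2 scale. Their levels were 0.575, 0.600, 0.633 and 0.722 times those with IRX3_WT. Cxcl11 fell by 0.30 (SE 0.10, adjusted p = 0.0287), but its groups overlapped and the call ended without IRX3_WT replicate 2 (adjusted p = 0.274) or IRX3_S361A replicate 3 (0.200) and with equal totals (0.0819).

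For the other 3 members no difference was called. Cxcl10 differed by -0.06 (95% interval -0.22 to 0.11, adjusted p = 0.691) and Cxcl9 by -0.04 (-0.31 to 0.22, adjusted p = 0.877), and both signs turned with equal totals. The Cxcl10 interval leaves room for a fall of the size of 0.22 and excludes one as large as those of Cxcl1 and Cxcl3. Cxcl16 differed by -0.09 (-0.17 to -0.02, adjusted p = 0.0582) with groups that did not overlap, and DESeq2 called it (adjusted p = 0.0353). The median of the 8 members was -0.39, against 0.01 over all genes tested. The IRX3_S361A libraries held more Irx3 than the IRX3_WT libraries, as given above. Their stromal and endothelial marker sum was smaller (172 to 243 against 275 to 289), and its part was not tested. Of the 5 markers of that list that were tested, 1 was called lower and none higher, where 9.07% and 6.43% of all genes were. The median log2 difference of these 5 was 0.62, opposite in direction to the sum.

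The S389A substitution gave a mixed result. Against IRX3_WT, 5 members were lower with IRX3_S389A (Cxcl1, Cxcl2, Cxcl3, Cxcl5 and Cxcl16) and 1, Cxcl10, was higher, where 8.21% of all genes were called higher and 7.08% lower. Cxcl3 fell by 0.48 (SE 0.05, adjusted p = 4.27e-06), Cxcl1 by 0.41 (SE 0.08, adjusted p = 0.00645), Cxcl5 by 0.40 (SE 0.13, adjusted p = 0.0357) and Cxcl2 by 0.36 (SE 0.08, adjusted p = 0.0169) on the log2 scale. Cxcl16 fell by 0.14 (SE 0.03, adjusted p = 0.00371). Cxcl10 rose by 0.28 (SE 0.07, adjusted p = 0.0337). Its neighbours Cxcl9 (0.29, 95% interval 0.02 to 0.56, adjusted p = 0.143) and Cxcl11 (0.11, -0.09 to 0.31, adjusted p = 0.512) were not called, although the Cxcl9 groups did not overlap. The median of the 8 members was -0.25, against 0.00 over all genes.

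The calls of Cxcl1, Cxcl3 and Cxcl16 held under all alternatives run, and those of the other 3 did not. Cxcl2 lost its call without IRX3_WT replicate 1 (adjusted p = 0.0523) or 3 (0.0584) and without IRX3_S389A replicate 1 (0.0632) or 2 (0.0552). Cxcl5 lost its call when the same libraries were left out (0.118, 0.176, 0.169 and 0.0963), and Cxcl10 lost its call without any IRX3_S389A library (0.0941, 0.104 and 0.0599 for replicates 1, 2 and 3), without IRX3_WT replicate 1 (0.0518) and without IRX3_S361A replicate 2 (0.0511). The calls depended on the method too. Cxcl2 lost its call with only the 2 groups compared (0.0563), and Cxcl5 and Cxcl10 with no filter on level (0.0701 and 0.0686). Cxcl5 and Cxcl10 also lost theirs without IRX3_WT replicate 1 and IRX3_S389A replicate 3 together (0.0855 and 0.0849). With edgeR on the 9 libraries whose reads were recovered both calls ended as well, at log2 differences of -0.40 and 0.25.

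With either substitution all 8 members remained above GFP. For IRX3_S361A, 8 of 8 were called higher, where 14.9% of all genes were called higher and 10.9% lower. The largest difference was that of Cxcl5 (log2 1.05 ± 0.13 SE, adjusted p = 6.30e-08), followed by Cxcl3 (0.61 ± 0.05, adjusted p = 4.94e-08), Cxcl1 (0.56 ± 0.08, adjusted p = 0.000482) and Cxcl10 (0.50 ± 0.07, adjusted p = 0.000778). Cxcl9 was higher by 0.46 ± 0.13 (adjusted p = 0.00744) with overlapping groups, Cxcl2 by 0.34 ± 0.08 (0.0146), Cxcl11 by 0.33 ± 0.10 (0.00988) and Cxcl16 by 0.16 ± 0.03 (0.000345). With equal totals the calls of Cxcl2, Cxcl11 and Cxcl16 ended (adjusted p = 0.0692, 0.0861 and 0.280) and the split over all genes went from 1996 higher and 1461 lower to 1053 and 3233. Without GFP replicate 3 those of Cxcl2, Cxcl9 and Cxcl11 ended (0.0533, 0.0630 and 0.0740). Cxcl2 also lost its call without IRX3_S361A replicate 2 (0.0537), Cxcl9 without IRX3_S361A replicate 1 (0.0952), and Cxcl11 without either of these (0.0523 and 0.0556).

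For IRX3_S389A, 8 of 8 were likewise called higher than with GFP, where 18.8% of all genes were called higher and 16.2% lower. Cxcl5 was higher by 1.45 ± 0.13 (log2, SE; adjusted p = 1.74e-11), Cxcl3 by 0.87 ± 0.05 (1.85e-10), Cxcl10 by 0.84 ± 0.07 (1.58e-05) and Cxcl1 by 0.81 ± 0.08 (2.58e-05). Cxcl9 was higher by 0.80 ± 0.13 (adjusted p = 8.15e-06), Cxcl11 by 0.74 ± 0.10 (8.55e-08), Cxcl2 by 0.44 ± 0.08 (0.00242) and Cxcl16 by 0.12 ± 0.03 (0.00765). The Cxcl16 difference turned to -0.053 with equal totals (adjusted p = 0.197), under which the split over all genes went from 2516 higher and 2160 lower to 1334 and 5401. The 3 comparisons against GFP share the GFP libraries, so they are not independent of each other.

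The substituted constructs were also compared with each other. With IRX3_S389A, 4 members were higher than with IRX3_S361A and none was lower, where 7.00% of all genes were called higher and 3.16% lower. The 4 were Cxcl11 (log2 difference 0.41 ± 0.10 SE, adjusted p = 0.00348), Cxcl5 (0.40 ± 0.13, adjusted p = 0.0487), Cxcl10 (0.33 ± 0.07, adjusted p = 0.0203) and Cxcl3 (0.26 ± 0.05, adjusted p = 0.00284). Cxcl1 (0.25, 95% interval 0.08 to 0.42, adjusted p = 0.0780) and Cxcl9 (0.33, 0.07 to 0.60, adjusted p = 0.108) were not called although their groups did not overlap. Cxcl2 (0.11, -0.08 to 0.29, adjusted p = 0.516) and Cxcl16 (-0.05, -0.12 to 0.02, adjusted p = 0.481) overlapped.

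None of these 4 calls held under all alternatives run. Each of the 4 ended with edgeR on the 9 libraries whose reads were recovered, a fit with 1 IRX3_S361A library. The log2 differences there were 0.32 for Cxcl3, 0.65 for Cxcl5, 0.22 for Cxcl10 and 0.32 for Cxcl11. Cxcl5 lost its call under TMM scaling (adjusted p = 0.0515), with DESeq2 (0.0550), with the replicate number as a block (0.0530) and without any of several libraries (up to 0.263, without IRX3_S361A replicate 1). Cxcl10 lost its call without IRX3_S361A replicate 2 (0.0593) or 3 (0.0621) or IRX3_S389A replicate 1 (0.0594) or 2 (0.0716), and Cxcl11 without IRX3_S361A replicate 3 (0.0525). Cxcl1 gained a call without IRX3_S361A replicate 2 (0.0104) and with DESeq2 (0.0147), and Cxcl9 without IRX3_S361A replicate 1 (0.0132). With equal totals 3 members were higher and 1, Cxcl16 (-0.10, adjusted p = 0.0427), was lower, and the split over all genes went from 936 higher and 423 lower to 596 and 1060. The lower Irx3 level in IRX3_S389A than in IRX3_S361A (log2 difference -0.90, adjusted p = 0.000867) cannot be told apart from the change of serine.

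The balance of Cxcl1, Cxcl2 and Cxcl3 against Cxcl10 was read within each library, where the scaling of libraries cancels. Cxcl10 was the only CXCR3 ligand gene used, and the separation below does not extend to Cxcl11. Cxcl1 and Cxcl11 read 49425 and 512 in IRX3_WT replicate 2, and 31247 and 309 in IRX3_S361A replicate 3. Their ratio was thus lower in that IRX3_WT library than in that IRX3_S361A library. The ratio of Cxcl1 to Cxcl10 counts was 0.956, 0.917 and 1.03 in IRX3_WT, 0.599, 0.604 and 0.638 in GFP, 0.549, 0.696 and 0.677 in IRX3_S361A, and 0.562, 0.574 and 0.672 in IRX3_S389A. The 3 IRX3_WT libraries stood above all 9 others, and those 9 overlapped. Cxcl3 to Cxcl10 gave the same picture, with 0.379 to 0.401 in IRX3_WT and 0.214 to 0.241, 0.223 to 0.264 and 0.216 to 0.261 in GFP, IRX3_S361A and IRX3_S389A. The ratio of Cxcl2 to Cxcl10 was 1.31 to 1.57 in IRX3_WT and 1.16 to 1.20 in GFP, but lower than in GFP with both substitutions, at 0.928 to 1.13 and 0.813 to 1.06. For each of the 9 differences between IRX3_WT and another group the 2-sided exact permutation p was 0.10, the smallest that 3 libraries against 3 can give, and it stayed at 0.10 after Benjamini-Hochberg adjustment over the 9.

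**Figure D4:**
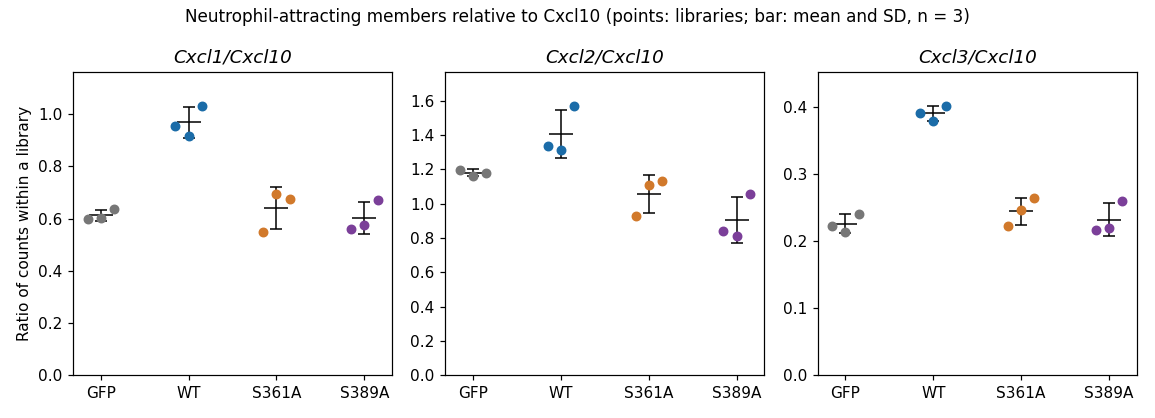
Ratio of Cxcl1, Cxcl2 and Cxcl3 counts to Cxcl10 counts within each library (linear axes from 0) by construct, with points for libraries and bars for the mean and SD over 3 libraries. In each panel the 3 IRX3_WT libraries lie above the other 9, for Cxcl1 at 0.917 to 1.03 against 0.549 to 0.696.

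Across the 12 libraries Cxcl1 and Cxcl3 followed each other most closely among the members (Pearson r = 0.99, a description over libraries that share 4 groups). With the group means removed, r ran from 0.20 (Cxcl3 and Cxcl5) to 0.80 (Cxcl1 and Cxcl2) over the 6 pairs of neutrophil-attracting genes and from 0.71 to 0.85 over the 3 pairs of CXCR3 ligand genes. Over the 12 pairs between the sets it ran from -0.64 (Cxcl5 and Cxcl10) to 0.22 (Cxcl3 and Cxcl10). The genes whose log2 levels tracked each member best among 11541 ranked were these. For Cxcl10 they were Ifi47, Ifit1 and Irgm2 (r = 0.995, 0.995 and 0.994), all known as interferon-induced genes, and for Cxcl11 they were Gbp4, an interferon-induced GTPase (0.97), Csrnp1 and Rmdn3 (both 0.96). Cxcl9 was followed less closely, by Parp11 (0.95), Rufy3 (0.94) and Psma4 (0.94). For Cxcl3 they were the amino acid transporter gene Slc16a10, the CC chemokine gene Ccl3 and Mdfic (all r = 0.99). For Cxcl1 they were Pdcd10, Plek and Mdfic (all 0.99), for Cxcl5 Ago3, the mitochondrial superoxide dismutase gene Sod2 and Tax1bp1 (all 0.99), and for Cxcl2 the poly(A)-binding protein gene Pabpc1, Shoc2 and Mtdh (all 0.98). Cxcl16 was followed by Foxp4, Vasp and Psma6 (0.96).

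The genes between the members on chromosome 5 did not all share their pattern. Pf4 (CXCL4, a platelet and macrophage chemokine), which lies between Cxcl5 and Cxcl3, read 2753 ± 259 in GFP, 4177 ± 109 in IRX3_WT, 3621 ± 109 in IRX3_S361A and 3433 ± 103 in IRX3_S389A (SD, n = 3). It was higher with IRX3_WT than with GFP by 0.61 (adjusted p = 5.94e-13) and lower with IRX3_S361A and IRX3_S389A than with IRX3_WT by 0.21 and 0.28 (adjusted p = 0.00206 and 4.28e-05). Ppbp (CXCL7), next to it, read 24.8 to 51.9 in all libraries and was not called over the 4 groups (adjusted p = 0.783). Cxcl15 in the same interval was at 0 in all but 1 library.

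Of the 7 other CXC chemokine genes, 4 were expressed enough to be tested. With IRX3_WT against GFP 2 of them were higher, Pf4 and the B-cell attractant Cxcl13 (0.70, adjusted p = 1.23e-06), and none was lower (2 higher and 1 lower with equal totals). Over all genes 21.0% were called higher and 18.6% lower there. Cxcl13 fell by 0.40 with IRX3_S389A against IRX3_WT (adjusted p = 0.00742), a call that ended without IRX3_S389A replicate 2 (0.0540). Cxcl14 was lower with IRX3_S361A than with GFP by 0.22 (adjusted p = 0.000256). It was higher with IRX3_S389A than with IRX3_S361A by 0.20 (adjusted p = 0.00159). That second call ended with edgeR on the 9 libraries whose reads were recovered, a fit with 1 IRX3_S361A library (log2 difference 0.21). The receptors of the members were scarce in these macrophages: Cxcr2 read at most 2.07, Cxcr3 3.12 to 24.0 and Cxcr6 1.99 to 15.6. Cxcr4, the receptor of CXCL12, fell with IRX3_WT, from 175 ± 13.4 in GFP to 37.9 ± 10.6 (log2 difference -2.21, adjusted p = 4.57e-12), and was the only receptor called in that comparison of the 3 tested (2 were called lower with equal totals).

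NF-kappaB is known to drive the neutrophil-attracting genes after LPS. Transcripts of 16 genes were read, 14 of its pathway and the C/EBP factor genes Cebpb and Cebpd. With IRX3_WT against GFP 15 of 16 were higher and none lower, where 21.0% and 18.6% of all genes were. The median log2 difference was 0.58 (12 of the 16 were higher with equal totals). The 14 pathway genes were all higher. Examples were the feedback inhibitors Tnfaip3 (0.96, adjusted p = 4.09e-23) and Nfkbia (0.69, adjusted p = 2.82e-19), the co-regulator Nfkbiz (0.61, adjusted p = 5.23e-18) and the subunit gene Nfkb1 (0.59, adjusted p = 2.27e-18). Against IRX3_WT, 9 of 16 were lower and 1 higher with IRX3_S361A (median -0.16), where 9.07% and 6.43% of all genes were. With IRX3_S389A 7 were lower and 1 higher (median -0.13), where 7.08% and 8.21% were. In both the higher gene was Cebpd (0.22 and 0.17, adjusted p = 0.000371 and 0.00783), picked out after its values were seen, and the lower ones were all among the 14. The second Cebpd call ended without IRX3_WT replicate 1, alone (0.0721) or together with IRX3_S389A replicate 3 (0.0640). It also ended with edgeR on the 9 libraries whose reads were recovered (log2 difference 0.14). Tnfaip3 fell by 0.35 and 0.12 (adjusted p = 7.53e-10 and 0.0121) and Nfkbia by 0.20 in each (adjusted p = 2.12e-05 and 3.39e-05). The Tnfaip3 call for IRX3_S389A ended without IRX3_WT replicate 1 and IRX3_S389A replicate 3 together (0.0842). Tnfaip3 and Nfkbia are themselves known NF-kappaB targets. The activity of NF-kappaB was not measured, and the part of these genes in the chemokine differences was not tested.

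The 16 genes of interferon signalling had a smaller median difference. With IRX3_WT against GFP 11 of 16 were higher and none lower (median 0.21), where 21.0% and 18.6% of all genes were. With equal totals, however, 6 of the 16 were higher and 4 lower. The kinase gene Jak2 had the largest difference among the named ones (0.94, adjusted p = 7.89e-23), followed by Irf1 (0.58, adjusted p = 5.63e-13) and Stat2 (0.36, adjusted p = 1.05e-09). With IRX3_S361A against IRX3_WT 1 of 16 was higher and 2 were lower, near the 6.43% and 9.07% of all genes: Jak2 fell by 0.52 (adjusted p = 3.21e-14), while Irf1, a direct activator of CXCR3 ligand genes, differed by -0.05 (adjusted p = 0.505). With IRX3_S389A against IRX3_WT 6 were higher and 2 lower, where 8.21% and 7.08% of all genes were. Irf7 rose by 0.35 (adjusted p = 1.08e-07), Irf1 by 0.27 (5.72e-05) and Stat2 by 0.19 (0.000569), whereas Jak2 fell by 0.29 (9.98e-08). Ifnb1, the interferon beta gene, picked out after its values were seen, read 18.2 to 33.2 in IRX3_WT and 42.3 to 58.9 in IRX3_S389A. The log2 difference was 1.06 (adjusted p = 0.00494), a call that ended without IRX3_WT replicate 1 and IRX3_S389A replicate 3 together (0.0505). Ifnb1 read 21.3 to 33.8 in GFP and 27.1 to 34.8 in IRX3_S361A. Its GFP and IRX3_WT ranges thus overlapped. The part of Ifnb1 in the levels of Cxcl9, Cxcl10 and Cxcl11 was not tested. Between the substituted constructs 8 of 16 were higher with IRX3_S389A and none lower (7 and 2 with equal totals), where 7.00% and 3.16% of all genes were. Among the 8 was Irf1 (0.32, adjusted p = 4.78e-06).

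**Figure D5:**
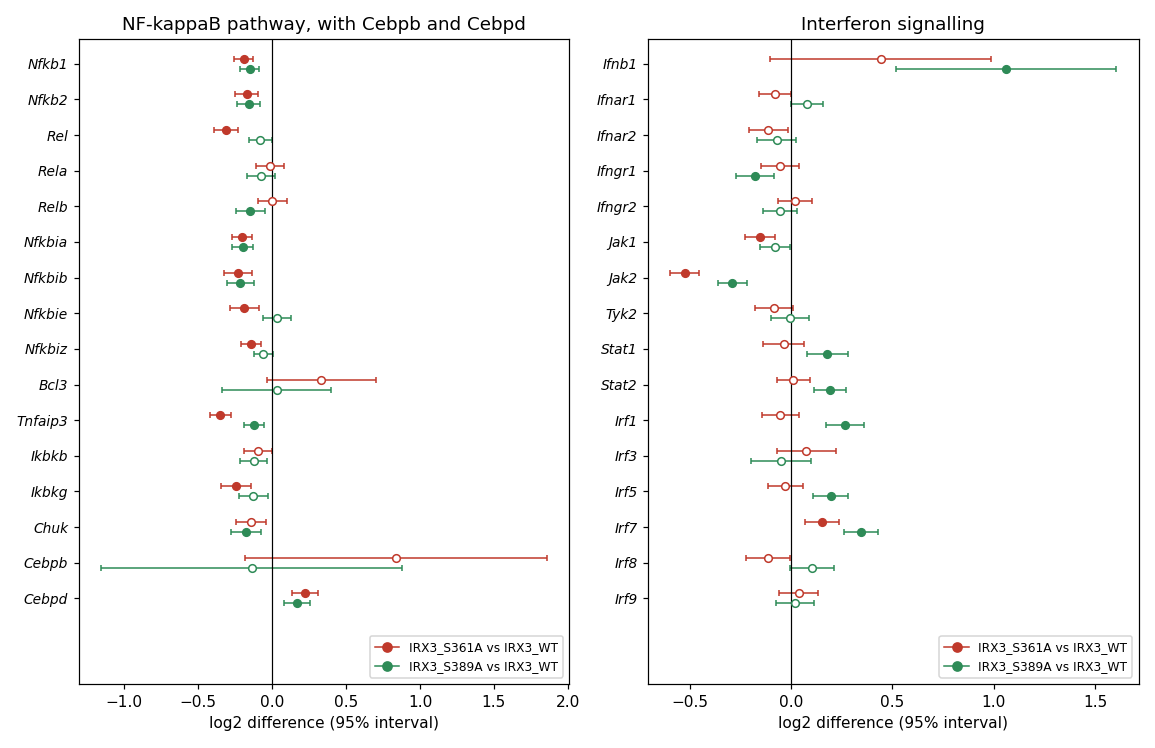
Log2 differences with 95% intervals from limma for 14 NF-kappaB pathway genes with Cebpb and Cebpd (left) and the 16 interferon pathway genes (right), IRX3_S361A and IRX3_S389A each against IRX3_WT. Filled points passed an adjusted p of 0.05 and open points did not. On the left 9 and 7 genes are filled below 0, and on the right 6 are filled above 0 for IRX3_S389A.

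Transcripts of the neutrophil-attracting chemokines carry AU-rich elements and are short-lived, so genes of that decay route were read too. With IRX3_WT against GFP 8 of 12 were higher and 3 lower (4 and 4 with equal totals), where 21.0% and 18.6% of all genes were. Zfp36, which encodes the AU-rich element binding protein tristetraprolin, was higher by 0.67 (adjusted p = 4.61e-17) and the endonuclease gene Zc3h12a by 0.75 (5.15e-17), whereas the tristetraprolin relatives Zfp36l2 and Zfp36l1 fell by 1.94 and 1.06 (adjusted p = 7.04e-23 and 3.77e-13). With IRX3_S361A against IRX3_WT 1 of 12 was higher and 4 lower (2 and 2 with equal totals), where 6.43% and 9.07% of all genes were, and with IRX3_S389A 2 were higher and 3 lower, where 8.21% and 7.08% were. Zc3h12a fell by 0.23 and 0.26 (adjusted p = 0.000229 and 3.39e-05), and Zfp36 rose by 0.23 with IRX3_S389A (3.21e-05).

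Proteases that trim or shed CXC chemokines and the proteoglycans that hold them formed the last list, with 8 of 10 genes tested. With IRX3_WT against GFP 6 were higher and none lower (6 and 1 with equal totals), where 21.0% and 18.6% of all genes were. The proteoglycan gene Sdc4 was higher by 0.89 (adjusted p = 7.20e-22), Mmp9 by 0.78 (2.15e-15), Mmp14 by 0.72 (1.25e-21) and Mmp12, whose product cleaves neutrophil-attracting chemokines, by 0.56 (8.26e-16). With IRX3_S361A against IRX3_WT 1 of 8 was higher and 4 lower (2 and 3 with equal totals), where 6.43% and 9.07% of all genes were, and with IRX3_S389A 2 were higher and 1 lower, where 8.21% and 7.08% were. Mmp12 fell by 0.35 with IRX3_S361A (2.54e-09) but rose by 0.17 with IRX3_S389A (0.000685), and the substituted constructs differed by 0.52 (1.98e-12).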

How the data were processed

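RNA sequencing values for 12 libraries were analysed. The deposited table holds a normalized signal per gene: per the labels it comes from total RNA, and per the submitters' processing notes the tools were Trimmomatic, StringTie 1.3.5 and HISAT2 2.1.0, with build mm10. The sources used here do not give the counter, its strand setting or the normalization. In each column 100% of the deposited signal values were whole multiples of 1 step (tolerance 1e-06, step 0.890 to 1.14), so reads could be recovered (17149058 to 20108002 per library); 3 columns had a step within 1% of 1, so recovery is claimed for 9 libraries. These depths limit weakly expressed genes, with a floor of 3 reads.

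Genes with at least 10 units in at least 3 libraries (13369) were tested in 1 fit over 12 libraries (8 residual degrees of freedom) with limma 3.58.1 (trend, robust; R 4.3.3) on log2(value + 1), with Benjamini-Hochberg adjustment over all 13369 and a threshold of 0.05. A fold on this scale understates changes of low genes. Alternatives were edgeR 4.0.16 and DESeq2 1.42.0 on recovered reads, other pseudocounts, filters, scalings and sample sets, a replicate block, and each library left out. After seeing the data, a fit without IRX3_WT replicate 1 and IRX3_S389A replicate 3, whose deviations followed GC content most, was added. Of these fits only that of limma was tried on simulated counts, and only for IRX3_WT against GFP.

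Members and gene lists were chosen with earlier results of these data known. Named genes are the 8 members, Irx3, up to 4 genes per list with the smallest p over the 4 groups, and the 3 genes most like each member by Pearson r. Outside that rule, Ifnb1 and Cebpd were added after their values were seen, and marker, neighbouring and receptor genes are given by level. GENCODE M21 gave symbols for 99.5% of identifiers. RefSeq promoter windows were used for 5 members, and those of the other 3 were not used here.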

Additional observations from a re-analysis of the deposited data

How the results depend on the processing

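Each of the 48 differences of a member (8 genes, 6 comparisons) was recomputed under 24 alternatives. Of the 39 that were called, 26 kept direction and call under all of them, and of their 936 alternative values 874 kept both, 61 lost the call and 1 turned direction. Of the 216 alternative values of the 9 that were not called, 200 kept both, 10 gained a call and 6 turned direction.

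Leaving out 1 library at a time, the number of members called ran from 3 to 6 for IRX3_S389A vs IRX3_WT (6 reported; 3 without IRX3_WT replicate 1 or IRX3_S389A replicate 1 or 2), from 5 to 8 for IRX3_S361A vs GFP (5 without GFP replicate 3), from 1 to 4 for IRX3_S389A vs IRX3_S361A (1 without IRX3_S361A replicate 3, 2 without IRX3_S389A replicate 2) and from 4 to 6 for IRX3_S361A vs IRX3_WT. It stayed at 8 for IRX3_WT vs GFP and IRX3_S389A vs GFP. With equal totals 5 members were called for IRX3_S361A vs GFP. For IRX3_S389A vs IRX3_S361A, edgeR on the 9 libraries kept none of the reported calls. It called Cxcl1 (log2 difference 0.39), which was not among them. Leaving out the 2 libraries with the strongest GC trends left 2 members called. With those 9 libraries, where IRX3_S361A has 1 library that is assumed to vary like the other groups, edgeR called 1377 genes in place of 2071 for IRX3_S361A vs IRX3_WT, 2253 in place of 3457 for IRX3_S361A vs GFP and 433 in place of 1359 for IRX3_S389A vs IRX3_S361A. Fewer samples entered that fit.

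Some directions turned. Cxcl9, IRX3_S361A vs IRX3_WT, became 0.019 with equal totals and 0.26 with edgeR on 9 libraries, and with 1 library left out it ran from -0.20 to 0.13 (above 0 without IRX3_WT replicate 2 or IRX3_S361A replicate 3). Cxcl10, IRX3_S361A vs IRX3_WT, became 0.0068 with equal totals and 0.028 with edgeR on 9 libraries. Irf1, IRX3_S361A vs IRX3_WT, became 0.010 with equal totals and 0.028 with edgeR on 9 libraries, and with 1 library left out it ran from -0.10 to 0.0055 (above 0 without IRX3_WT replicate 2). Cxcl16, IRX3_S389A vs GFP, became -0.053 with equal totals. The cause was not tested.

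Replicate numbers do not pair the samples: the 18 same-numbered pairs of libraries had correlations of deviations from -0.041 to 0.030, and 1 library correlated best with its own number. With the replicate number as a block the members called were 3 in place of 4 for IRX3_S389A vs IRX3_S361A and the same number in the 5 other comparisons. The genes called with that block were 5241 for IRX3_WT against GFP, 3387 and 4637 for IRX3_S361A and IRX3_S389A against GFP, 2023 and 1982 for these against IRX3_WT, and 1322 between them.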
